A study of Mus musculus with 4 samples.

Results

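Wnt ligands, their receptors, the secreted antagonists and the first steps of the pathway inside the cell were followed in the mouse retina at E13.5 (E, embryonic day). The members were taken by gene name alone: every numbered Wnt, Fzd, Sfrp and Dkk gene, Rspo1 to Rspo4, and 14 further pathway genes from Wif1 to Znrf3. This gave 55 of the 25239 gene IDs in the tables, made up of 19 ligands, 12 receptors and coreceptors, 9 secreted antagonists, 8 genes of the R-spondin branch and 7 cytoplasmic or nuclear genes. RNA was sequenced from 2 retinal libraries labelled control and 2 labelled Isl1cKO, in which Isl1, a LIM-homeodomain transcription factor of developing ganglion cells, was to be lost. The series aimed at an overview of the transcripts affected by that loss. The Cre driver, the control genotype, the strain and the number of embryos per library are not given in the sources used here. The labels do not say whether replicates came from separate animals, so p-values measure only the spread between these libraries.

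Wnt proteins are secreted, lipid-modified signals that bind Frizzled receptors together with the coreceptors Lrp5 and Lrp6. In the canonical branch this stabilises beta-catenin (Ctnnb1), which enters the nucleus and activates genes with the DNA-binding factors of the TCF/LEF family, and Axin2 is a widely used readout of that activity. In the developing eye canonical signalling is best known at the ciliary margin and in the pigment epithelium, while secreted antagonists are made by the neural retina.

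Levels are given as TPM, a measure of transcript abundance that is scaled to transcript length and to a fixed sum per library and so allows comparison between genes. Aligned sequence ranged from 12.6 to 14.3 gigabases per library. Markers of retinal progenitors were high in each library, with Rax at 405 to 477 TPM and Pax6 at 537 to 610 TPM. Isl1 itself had 242 and 201 TPM in control, against 321 and 223 TPM in the Isl1cKO-labelled libraries, a difference in log2(TPM + 1) of 0.28 (SE 0.21, adjusted p = 0.683 in limma). With Isl1cKO replicate 1 left out it was 0.01, and with replicate 2 of that group left out 0.54. The targeted gene thus did not bear out the labels, the tables give no value per exon, and every direction below rests on the labels. On the first principal component, with 63.6% of the variance, the libraries were ordered by label. The controls lay at -21.8 and -15.8, and Isl1cKO replicates 1 and 2 at 7.13 and 30.5. Isl1cKO replicate 2 thus lay furthest from the controls, and its Xist level was 0.501 TPM against 209 to 287 TPM in the other libraries. Xist thus set Isl1cKO replicates 1 and 2 apart, and the labels give no sex.

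Upstream sequences are shown for 4 Frizzled or antagonist genes, while none was available for Wnt7b or Lgr5. Those of Wif1, Fzd9 and Fzd1 are shown for the differences described below, and that of Fzd5 as the main Frizzled transcript. Each is the 250 bases before the annotated start (RefSeq, GRCm38.p6), written 5′ to 3′ on the gene's strand. They lie at chr10:121033754-121034003 (plus strand) for Wif1, chr5:135251048-135251297 (minus) for Fzd9, chr5:4758217-4758466 (minus) for Fzd1 and chr1:64737751-64738000 (minus) for Fzd5. Capitals mark matches to 1 of 2 motifs searched on both strands, CTTTGAT, a TCF/LEF-type string, and CTAATG, an ISL1-type string that reads CATTAG on the other strand.
Wif1: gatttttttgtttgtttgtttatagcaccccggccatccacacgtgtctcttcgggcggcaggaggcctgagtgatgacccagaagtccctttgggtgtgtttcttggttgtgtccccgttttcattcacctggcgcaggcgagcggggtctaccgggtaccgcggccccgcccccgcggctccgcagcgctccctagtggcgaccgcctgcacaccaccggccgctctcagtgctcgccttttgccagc
Fzd9: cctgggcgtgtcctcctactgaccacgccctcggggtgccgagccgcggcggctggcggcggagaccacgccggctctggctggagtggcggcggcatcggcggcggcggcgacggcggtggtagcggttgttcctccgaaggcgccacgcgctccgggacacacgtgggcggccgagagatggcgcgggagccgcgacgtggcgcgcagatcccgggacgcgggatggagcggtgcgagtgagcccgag
Fzd1: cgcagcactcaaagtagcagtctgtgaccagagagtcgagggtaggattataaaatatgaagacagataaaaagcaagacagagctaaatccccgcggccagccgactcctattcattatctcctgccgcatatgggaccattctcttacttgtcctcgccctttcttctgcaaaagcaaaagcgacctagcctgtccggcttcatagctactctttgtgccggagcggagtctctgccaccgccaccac
Fzd5: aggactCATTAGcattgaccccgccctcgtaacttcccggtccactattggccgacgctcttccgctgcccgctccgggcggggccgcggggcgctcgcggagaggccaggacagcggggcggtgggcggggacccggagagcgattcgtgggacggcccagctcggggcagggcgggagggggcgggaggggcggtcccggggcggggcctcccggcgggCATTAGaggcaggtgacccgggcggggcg

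Only the Fzd5 window held a match, with CATTAG present in 2 places. Among the 46 windows found for 36 of the 55 members, 2 held CTTTGAT (a window of Wnt5b and one of Wnt11) and 1 held CTAATG, that of Fzd5. Over all 32851 windows of the same length the shares were 3.21% for CTTTGAT and 6.36% for CTAATG. The windows of Fzd9 and Fzd5 were each 76.4% G or C, that of Wif1 62.8% and that of Fzd1 51.2%, against a median of 66.8% over the members' windows and 52.4% over all windows. These matches describe letters only, and no binding was measured.

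No member of the Wnt system passed the test between the Isl1cKO-labelled libraries and control, and the largest differences were those of Wif1, Wnt7b, Fzd9 and Fzd1. Of the 55 members, 33 had at least 1 TPM in at least 2 libraries and were tested with all other such genes in limma, on log2(TPM + 1) and with Benjamini-Hochberg adjustment. At an adjusted p under 0.05, 0 of the 33 passed, where 69 of 13984 genes (0.493%) passed in all. At an unadjusted p under 0.05 there were 4 members, Lgr5 and Fzd1 higher and Wif1 and Fzd9 lower, which is 12.1% of the 33, beside 12.1% of all genes tested (3.20% higher and 8.92% lower). The median difference was 0.02 over the tested members and -0.05 over all genes, and the median size regardless of sign was 0.11 in both. A difference under 0.25 in size was found for 23 of the 33 (69.7%, beside 79.5% of all genes), and one of at least 0.5 for 4 (12.1%, beside 6.84%). For 30 of the 33 (90.9%, beside 92.2% of all genes) the 95% interval of the difference lay between -1 and 1, that is, within a doubling or halving of TPM + 1, and the exceptions were Wif1, Fzd1 and Wnt7b. Leaving out 1 library moved the count over all genes from 69 to between 3 (without control replicate 2) and 136 (without Isl1cKO replicate 1), with 4 without control replicate 1 and 17 without Isl1cKO replicate 2, and the members' count was 1, Wif1, without Isl1cKO replicate 1 and 0 in the other 3 cases.

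**Figure D1:**
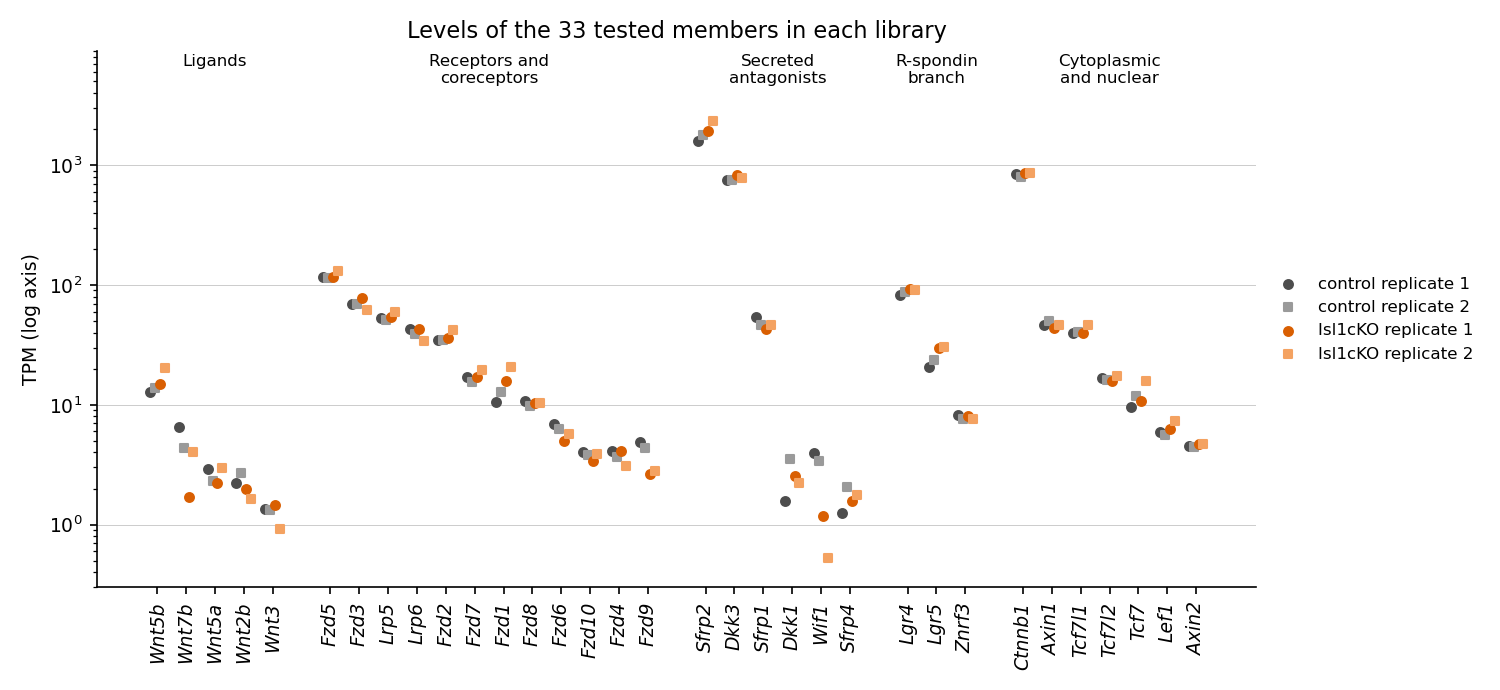
TPM on a log axis for the 33 tested members, grouped by role and ordered by mean level, with 1 point per library (grey, control; orange, Isl1cKO-labelled libraries). Sfrp2, Dkk3 and Ctnnb1 lie far above the rest, and most members have their 4 points close together. The points of Wif1 and Fzd9 spread by group, while those of Wnt7b also spread widely within each group.

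The values of both groups did not overlap in 17 of the 33 tested members, 11 higher and 6 lower in the Isl1cKO-labelled libraries. Over all genes tested this held for 44.9%, with 14.9% higher and 30.0% lower. The members that were higher in both such libraries were Wnt5b, Fzd1, Fzd2, Lrp5, Sfrp2, Dkk3, Lgr4, Lgr5, Lef1, Axin2 and Ctnnb1, and those lower in both were Wnt2b, Wnt7b, Fzd6, Fzd9, Sfrp1 and Wif1. None of these 17 differences passed the adjusted threshold. In bulk tissue, a smaller number of cells of a type and less RNA per cell cannot be told apart.

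**Figure D2:**
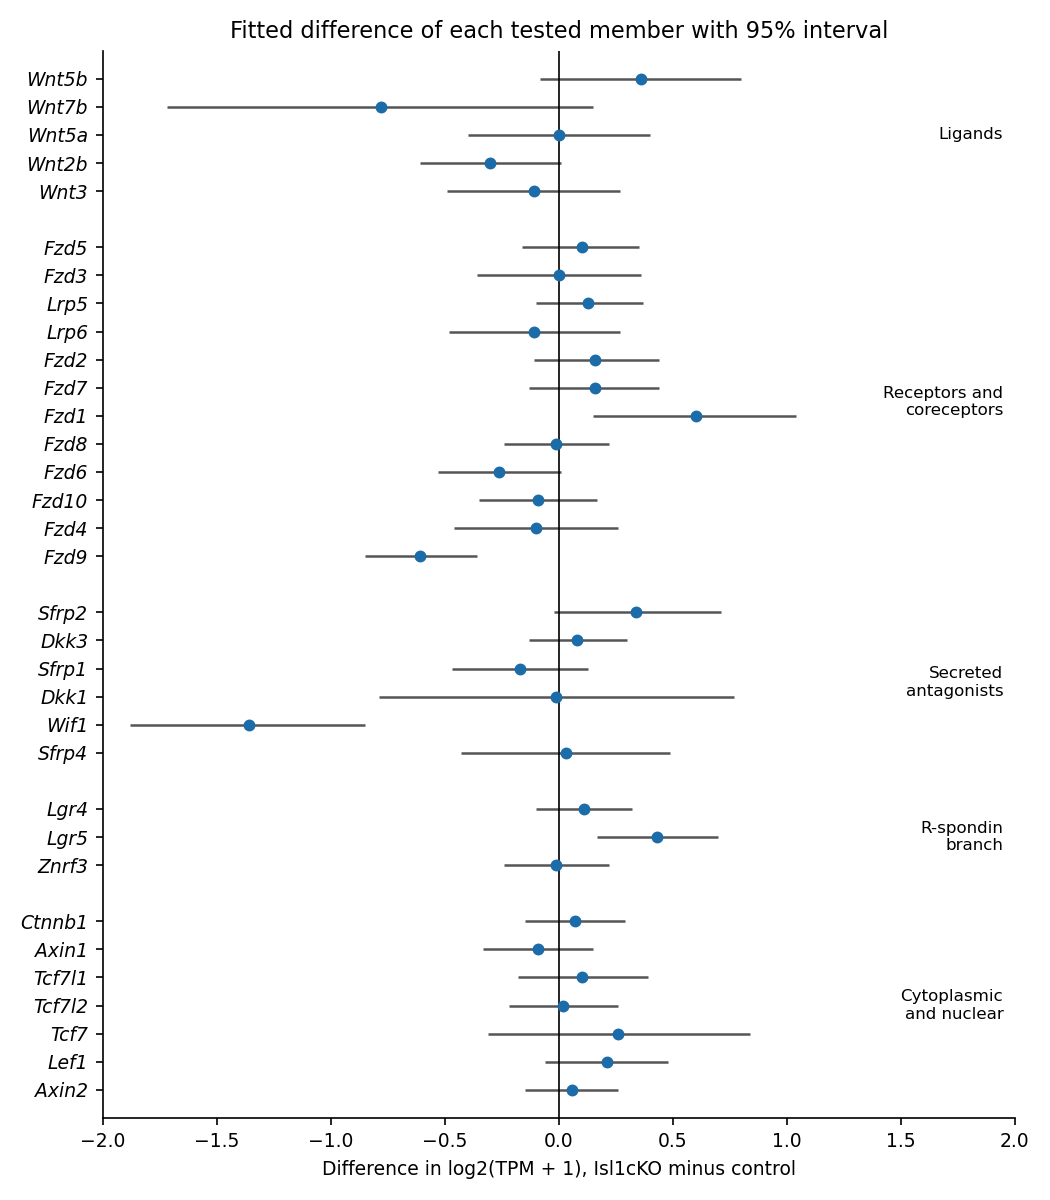
Points give the difference in log2(TPM + 1), Isl1cKO-labelled libraries minus control, for each of the 33 tested members, and lines its 95% interval from limma. The intervals of Wif1, Fzd9, Fzd1 and Lgr5 leave out 0, and those of the other 29 include it.

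Wnt ligand transcripts were scarce. Summed over all 19 genes they came to 29.0 and 27.8 TPM in control and to 24.6 and 31.9 TPM in the Isl1cKO-labelled libraries, so the total overlapped between the groups. Wnt5b, a ligand best known for beta-catenin-independent signalling, held the largest share of that sum in each library, 44.2% and 50.1% in control and 60.5% and 63.7% in the Isl1cKO-labelled libraries. Its level was 12.8 and 13.9 TPM in control and 14.9 and 20.3 TPM in the Isl1cKO-labelled libraries. Both of the latter were above both controls, but by 0.36 (SE 0.16) with an adjusted p of 0.488 in limma. The size rested on Isl1cKO replicate 2, since the difference was 0.15 without it and 0.57 without Isl1cKO replicate 1. The gene overlaps Fbxl14 on the other strand. The libraries were strand-specific, but whether reads were assigned to genes by strand is not stated.

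Wnt7b, a ligand that can signal through beta-catenin, stood at 6.49 and 4.34 TPM in control and at 1.69 and 4.03 TPM in the Isl1cKO-labelled libraries. The highest of the latter lay just under the lowest control, and the difference of -0.78 (SE 0.35, 95% interval -1.72 to 0.15) had an adjusted p of 0.481. It was -0.33 without Isl1cKO replicate 1, -1.23 without Isl1cKO replicate 2, and -0.54 and -1.03 without control replicates 1 and 2. Its share of the ligand sum was 22.4% and 15.6% in control and 6.86% and 12.6% in the Isl1cKO-labelled libraries. Like Wnt5b, Wnt7b overlaps a gene on the other strand, AU022754. Wnt2b, known from the ciliary margin and pigment epithelium, stood at 2.24 and 2.69 TPM against 2.00 and 1.64 TPM, without overlap, a difference of -0.30 (SE 0.12, adjusted p = 0.430). Wnt5a, like Wnt5b a ligand of the beta-catenin-independent branch, had the same mean of 2.61 TPM in both groups. Wnt3 stood at 1.36 and 1.33 TPM in control and at 1.46 and 0.911 TPM in the Isl1cKO-labelled libraries, which overlapped.

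**Figure D3:**
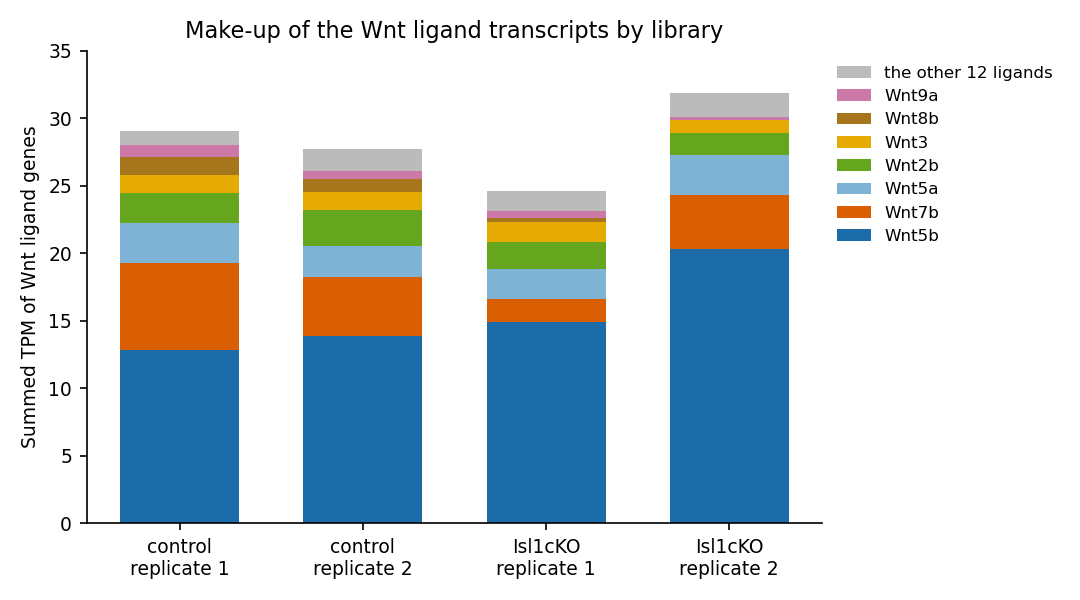
Stacked bars give the TPM of the Wnt ligand genes in each library, starting at 0. Wnt5b (blue) makes up 44.2% to 63.7% of each bar, the band of Wnt7b (dark orange) is wider in the controls, and that of Wnt8b (brown) nearly vanishes in Isl1cKO replicate 2.

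The other 14 ligands did not reach 1 TPM in 2 libraries and were not tested. Wnt8b alone of them reached 1 TPM in any library. It was at 1.33 and 0.957 TPM in control and at 0.355 and 0.0538 TPM in the Isl1cKO-labelled libraries, where its mean coverage per base was 1.90 and 0.267 against 6.97 and 4.73. Both controls thus lay above both other libraries. With all genes above 0 tested, the difference of -0.84 had an adjusted p of 0.342 in limma. Wnt9a, at 0.873 and 0.597 TPM against 0.499 and 0.215 TPM, was ordered the same way. Wnt1 was listed at 0 in each library, and Wnt3a at 0 in all but Isl1cKO replicate 1, where it was at 0.0817 TPM.

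Of the ligands, 4 pairs lie side by side in the genome, with no other listed gene between them. On chromosome 1 of mm10 they are Wnt6 (74771892 to 74785319) and Wnt10a (74792019 to 74804175), on chromosome 15 Wnt10b (98771752 to 98778150) and Wnt1 (98789857 to 98793830). The others are on chromosome 11, where Wnt3a (59248042 to 59290751) lies next to Wnt9a (59306930 to 59333552), and Wnt9b (103727363 to 103749821) next to Wnt3 (103774175 to 103818021). Of these 8 genes only Wnt3 passed the filter, while its neighbour Wnt9b did not exceed 0.0332 TPM in any library. None of the 5 tested ligands other than Wnt3 belongs to such a pair.

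Receptors were far more abundant than ligands. All 10 Frizzled genes and both coreceptors passed the filter, and their sum was 375 and 364 TPM in control and 386 and 394 TPM in the Isl1cKO-labelled libraries. Fzd5, a receptor known from retinal progenitors, led with 117 and 114 TPM in control and 116 and 131 TPM in the Isl1cKO-labelled libraries, which overlapped. It made up 30.2% to 33.2% of the sum in each library. Its difference was 0.10 (95% interval -0.16 to 0.35, adjusted p = 0.756). Fzd3, which acts in axon guidance, followed at 68.7 and 69.0 TPM against 77.7 and 61.3 TPM, where the Isl1cKO-labelled libraries lay on either side of the controls.

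The coreceptor Lrp5 stood at 52.5 and 51.3 TPM in control and at 54.5 and 59.7 TPM in the Isl1cKO-labelled libraries. Lrp6 stood at 43.2 and 38.9 TPM against 42.6 and 34.0 TPM. Lrp5 was higher in both Isl1cKO-labelled libraries by 0.13 (SE 0.09, adjusted p = 0.635), and Lrp6 overlapped. Fzd4, the receptor for Norrin in the retinal vasculature, was at 3.10 to 4.10 TPM and overlapped. Fzd2, Fzd7, Fzd8 and Fzd10 ranged over the 4 libraries from 34.8 to 42.4, 15.5 to 19.5, 9.84 to 10.8 and 3.37 to 4.07 TPM, with differences between -0.09 and 0.16. Fzd6, at 6.98 and 6.27 TPM against 5.03 and 5.72 TPM, did not overlap, and its difference of -0.26 (SE 0.10) had an adjusted p of 0.434.

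Fzd9 and Fzd1, both on chromosome 5, showed the largest differences among the receptors, in opposite directions. Fzd9 (minus strand, 135248938 to 135251047) had 4.89 and 4.38 TPM in control and 2.62 and 2.78 TPM in the Isl1cKO-labelled libraries. The gap between the groups was wider than the spread within either. The means were 4.63 ± 0.364 and 2.70 ± 0.118 TPM (SD, n = 2), a difference of -0.61 (SE 0.09, 95% interval -0.85 to -0.36), with an adjusted p of 0.125 in limma. Leaving out 1 library gave -0.67 to -0.54.

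Fzd1 (minus strand, 4753839 to 4758216) had 10.5 and 12.8 TPM in control and 15.8 and 20.6 TPM in the Isl1cKO-labelled libraries. Both of the latter were higher than both controls, with Isl1cKO replicate 2 the highest. The means were 11.6 ± 1.64 and 18.2 ± 3.35 TPM (SD, n = 2), a difference of 0.60 (SE 0.17, 95% interval 0.15 to 1.04) with an adjusted p of 0.306 in limma. Leaving out 1 library gave 0.42 (without Isl1cKO replicate 2) to 0.78 (without Isl1cKO replicate 1).

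**Figure D4:**
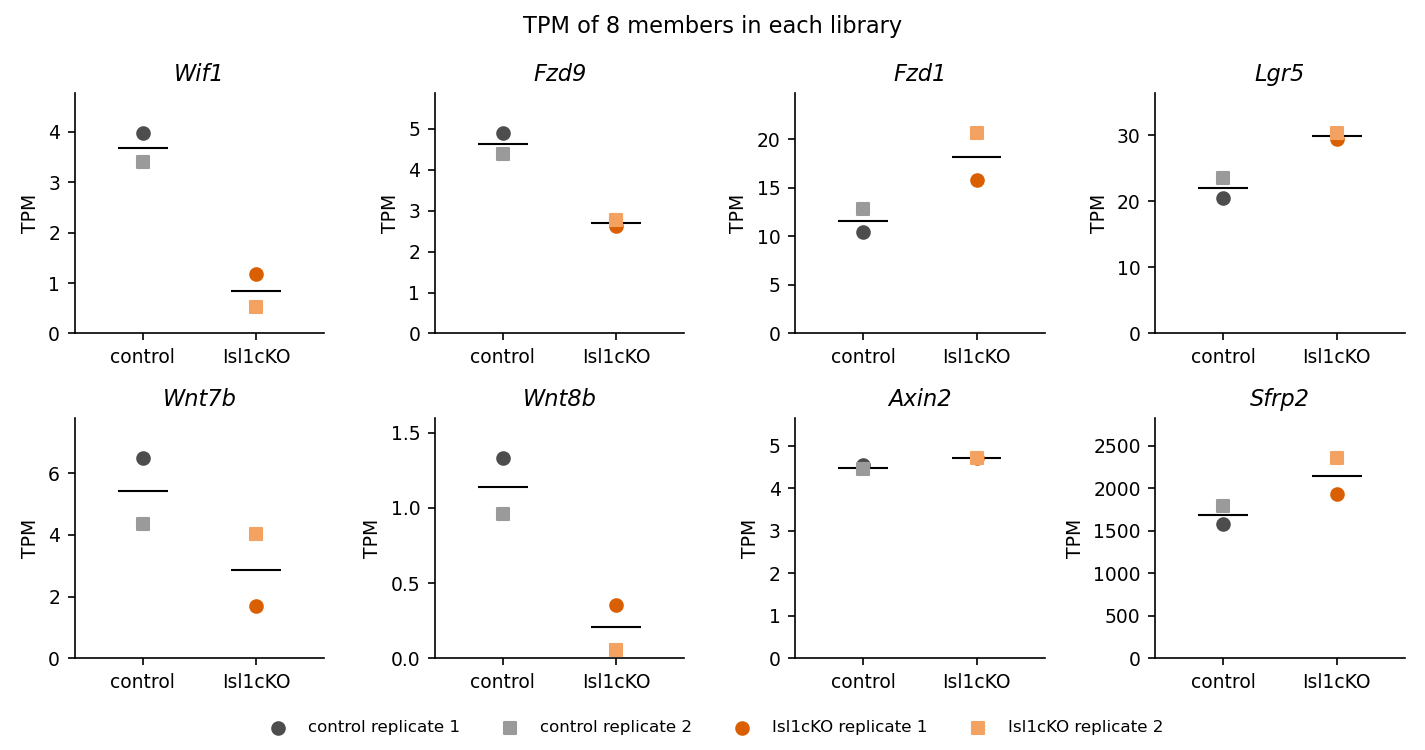
TPM of 8 members, on axes that start at 0, with 1 point per library and a line at each group's mean. Wif1, Fzd9 and Wnt8b are lower and Fzd1, Lgr5 and Sfrp2 higher in both Isl1cKO-labelled libraries, Wnt7b is lower by a narrow margin, and Axin2 shows 4.45 to 4.71 TPM throughout.

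Secreted antagonists, grouped by gene name, were the most abundant group, and a pair of genes made up nearly all of it. Whether each gene of the group acts as an antagonist here was not tested. Sfrp2, a Frizzled-related protein made by retinal progenitors that binds Wnt proteins, stood at 1577 and 1787 TPM in control and at 1928 and 2352 TPM in the Isl1cKO-labelled libraries. It was higher in both of the latter, with means of 1682 ± 148 and 2140 ± 300 TPM (SD, n = 2), a difference of 0.34 (SE 0.14, 95% interval -0.02 to 0.71) and an adjusted p of 0.435 in limma. Here too the size rested on Isl1cKO replicate 2, with 0.20 when it was left out and 0.49 when replicate 1 of that group was. Dkk3, a divergent member of the Dickkopf family, stood at 755 and 753 TPM against 822 and 778 TPM, a difference of 0.08 (SE 0.08, adjusted p = 0.745). Together with Sfrp1, at 54.0 and 46.4 TPM against 42.7 and 46.2 TPM, these formed almost the whole antagonist sum of 2394 and 2596 TPM in control and 2798 and 3181 TPM in the Isl1cKO-labelled libraries.

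Wif1 showed the largest difference of the 33 tested members. Its product, Wnt inhibitory factor 1, binds Wnt proteins outside the cell. The gene (chromosome 10, 121034004 to 121100642, plus strand) stood at 3.97 and 3.41 TPM in control. In Isl1cKO replicate 1 it was at 1.17 TPM, and in replicate 2 of that group at 0.531 TPM. Its coverage per base was 20.8 and 16.9 in control and 6.23 and 2.63 in the Isl1cKO-labelled libraries. The controls thus lay well above both other libraries, and the lowest value came from Isl1cKO replicate 2. The means were 3.69 ± 0.395 and 0.849 ± 0.450 TPM (SD, n = 2), 4.35 times as high in control.

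On the log2(TPM + 1) scale, where the pseudocount shrinks differences of scarce transcripts, the difference of Wif1 was -1.36 (SE 0.19, 95% interval -1.88 to -0.85). Its unadjusted p was 0.00138 and its adjusted p 0.112 in limma, short of the threshold. Wif1 passed with FPKM in place of TPM (-0.84, adjusted p = 0.0473 in limma). Without Isl1cKO replicate 1 the difference was -1.61, where Isl1cKO replicate 2 is assumed to vary as the controls do. In both of these fits only the controls, where Wif1 is high, brought it past the filter, so neither is separate support. The adjusted p ranged from 0.0473 to 0.251 over 7 alternatives with all libraries and no term for replicate.

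Most marker lists of other cell types had a lower sum in both Isl1cKO-labelled libraries. Their counts of genes lower without overlap stand beside 30.0% of all genes tested, and counts higher beside 14.9%. The counts also take in genes below the filter, which those shares leave out. Only 2 of the 7 endothelial, 4 of the 10 periocular mesenchyme and 4 of the 7 surface ectoderm markers were tested. For these lists the counts cannot be compared with the shares. The summed level of 9 lens markers was 161 and 203 TPM in control and 10.3 and 8.51 TPM in the Isl1cKO-labelled libraries, with 7 of 9 lower without overlap and Lim2 at 0 in both of the latter. That of 7 pigment epithelium markers was 44.1 and 37.3 TPM against 36 and 26.6 TPM, with 3 of 7 lower and Rpe65 at 0 in each library. That of 5 photoreceptor precursor markers was 256 and 220 TPM against 219 and 166 TPM, with 3 of 5 lower. That of 11 ganglion cell markers was 3905 and 3346 TPM against 2201 and 1520 TPM, with 9 of 11 lower. The red blood cell list (7 of 7 lower) was at 2456 and 3446 TPM against 1242 and 204 TPM. The endothelial list (6 of 7 lower) was at 85.4 and 64.2 TPM against 62.8 and 59.3 TPM. Most of that sum was Kdr, at 69 and 57 TPM against 56.7 and 55.5 TPM. Cdh5, Tie1 and Emcn were at 0 in Isl1cKO replicate 2. They also spread between the controls, at 2.55, 1.8 and 2.16 TPM in replicate 1 and 0.357, 0.336 and 0.383 TPM in replicate 2. The periocular mesenchyme list (3 of 10 lower, 1 higher) was at 27.6 and 20.1 TPM against 19.4 and 15.0 TPM. Of the 3 lower, Foxc1 and Prrx1 were below the filter, as was Foxc2, the 1 higher. The 7 surface ectoderm markers summed to 25.4 and 23.8 TPM against 23.2 and 23.5 TPM, with 2 of 7 lower and 2 higher. Among those, Trp63 (lower) and Perp (higher) were below the filter. The 6 amacrine and horizontal cell markers overlapped in sum, at 81.2 and 64.8 TPM against 77.4 and 53.2 TPM. The part of these cells in the levels of Wif1, Fzd9, Wnt7b, Wnt2b and Wnt8b was not tested.

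For markers that could move with the members that were higher, counts without overlap stand beside 14.9% higher and 30.0% lower over all genes tested. The 6 microglia genes summed to 45.6 and 44.9 TPM in control and 57.2 and 67.5 TPM in the Isl1cKO-labelled libraries. Of these, 4 of 6 were higher without overlap. The 6 ciliary margin genes summed to 189 and 224 TPM against 215 and 293 TPM and overlapped, with Isl1cKO replicate 2 the highest. Singly, 3 of the 6 were higher and 2 lower without overlap. The 8 retinal progenitor genes summed to 4090 and 3957 TPM against 3586 and 3860 TPM, which is lower in both Isl1cKO-labelled libraries. Fgf15 held the largest part of that sum, at 2012 and 1816 TPM against 1521 and 1473 TPM. Taken gene by gene, 3 of the 8 were higher without overlap (Rax, Pax6 and Six6) and 2 lower (Fgf15 and Six3). The lower sum thus does not stand for the list as a whole. The part of these cells in the levels of Fzd1, Lgr5, Sfrp2 and Wnt5b was not tested.

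The remaining antagonists were scarce. Dkk1, which blocks Lrp5 and Lrp6, ranged from 1.56 to 3.56 TPM and Sfrp4 from 1.24 to 2.05 TPM, and for both the control replicates lay at either extreme. Dkk2 did not pass the filter, with 0.997 and 0.461 TPM in control and 0.160 and 0.0912 TPM in the Isl1cKO-labelled libraries. Its groups did not overlap, and with all genes above 0 tested the difference was -0.60 (adjusted p = 0.417 in limma). Sfrp5 and Dkk4 stayed at or below 0.307 TPM.

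In the R-spondin branch, secreted R-spondins bind the Lgr receptors and so keep the ubiquitin ligases Rnf43 and Znrf3 from removing Frizzled receptors. The receptors Lgr4 and Lgr5 were present, while Lgr6, which is outside the members, did not exceed 0.0836 TPM. The R-spondins were not above 0.703 TPM in any library. Lgr5 (chromosome 10, minus strand, 115450314 to 115587780) had 20.5 and 23.5 TPM in control and 29.5 and 30.3 TPM in the Isl1cKO-labelled libraries. Both of the latter were above both controls and close together. The means were 22 ± 2.11 and 29.9 ± 0.50 TPM (SD, n = 2), a difference of 0.43 (SE 0.10, 95% interval 0.17 to 0.70) with an adjusted p of 0.244 in limma. The gene overlaps A930009A15Rik on the other strand.

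Lgr4 was the more abundant receptor, at 82.9 and 87.1 TPM in control and 92.8 and 90.8 TPM in the Isl1cKO-labelled libraries, a difference of 0.11 (SE 0.08, adjusted p = 0.669). Znrf3 stood at 7.59 to 8.18 TPM and overlapped. Rnf43 did not pass the filter, at 0.272 to 0.363 TPM. Among the R-spondins, Rspo3 was at 0.231 and 0.127 TPM in control and at 0.356 and 0.703 TPM in the Isl1cKO-labelled libraries, without overlap and without a test.

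Inside the cell, Ctnnb1 and the readout Axin2 lay within narrow ranges. Ctnnb1, encoding beta-catenin, stood at 847 and 792 TPM in control and at 862 and 857 TPM in the Isl1cKO-labelled libraries, a difference of 0.07 (SE 0.08, 95% interval -0.15 to 0.29, adjusted p = 0.794 in limma). Axin2 stood at 4.54 and 4.45 TPM in control and at 4.71 TPM in both Isl1cKO-labelled libraries. Its difference was 0.06 (SE 0.08) with a 95% interval of -0.15 to 0.26 and an adjusted p of 0.820. Axin1, the scaffold of the complex that degrades beta-catenin, stood at 46.2 and 50.2 TPM against 43.7 and 46.7 TPM and overlapped.

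All 4 DNA-binding partners of beta-catenin passed the filter. Tcf7l1, which mostly represses Wnt targets, led with 39.4 and 40.8 TPM in control and 39.8 and 46.6 TPM in the Isl1cKO-labelled libraries. It overlaps Gm15401 on the other strand. Tcf7l2 stood at 15.8 to 17.4 TPM over the 4 libraries and Tcf7 at 9.61 to 15.9 TPM, with Isl1cKO replicate 2 the highest for each, and both overlapped. Lef1, itself a Wnt target in many tissues, stood at 5.96 and 5.55 TPM against 6.33 and 7.30 TPM, without overlap, a difference of 0.21 (SE 0.10, 95% interval -0.06 to 0.48, adjusted p = 0.508).

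A further list of 65 pathway genes outside the members covered secretion factors, other receptors, the cytoplasmic machinery, nuclear cofactors, planar polarity genes and common targets. Of the 58 that passed the filter, 0 passed at an adjusted p under 0.05 in limma, and at an unadjusted p under 0.05 there were 1 higher and 5 lower, which is 10.3%, beside 12.1% of all genes. Their median difference was -0.07, beside -0.05 over all genes. The highest of the 6 was Ccnd1, encoding cyclin D1, a cell cycle regulator and common Wnt target, at 1944 and 1498 TPM in control and 848 and 961 TPM in the Isl1cKO-labelled libraries (-0.92, SE 0.16, adjusted p = 0.158). Myc, another common target, differed in the other direction, at 9.79 and 13.1 TPM against 16.1 and 22.9 TPM (0.71, SE 0.22, adjusted p = 0.342). The corepressor Tle1 stood at 47.4 and 53.7 TPM against 35.9 and 31.6 TPM (-0.57, adjusted p = 0.201).

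Ndp, encoding Norrin, a ligand of Fzd4 that is no Wnt protein, stood at 4.17 and 2.81 TPM in control and at 1.84 and 2.18 TPM in the Isl1cKO-labelled libraries (-0.56, SE 0.17, adjusted p = 0.342). The planar polarity genes Vangl1 (-0.40, adjusted p = 0.312) and Daam2 (-0.24, adjusted p = 0.396) completed the 6. In each of these 6 genes the groups did not overlap, which their selection by a small p favours. Over the whole list it held for 29 of the 58 (50%), beside 44.9% of all genes tested. Of the common targets Sp5, Cd44 and Cdx1 did not pass the filter, and Notum, a secreted Wnt-inactivating enzyme, stood at 9.97 to 11.1 TPM and overlapped.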

How the data were processed

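Poly(A)-selected, strand-specific RNA libraries of mouse retina, 2 labelled control and 2 labelled Isl1cKO, were compared. Per the submitters' processing notes, the tools were Trimmomatic, FastQC, HISAT2, SAMtools, StringTie and DESeq2, with build mm10. Their roles and versions, and the annotation, are not given in the sources used here. The authors deposited a coverage signal, FPKM and TPM per gene for each library, per the file headers. None of these units suits a count model, and depth in reads is unknown. The median ratio of coverage to FPKM gave the aligned gigabases.

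TPM were summed over repeated gene rows (0 among the members). Genes with at least 1 TPM in at least 2 libraries were fitted as log2(TPM + 1) by limma 3.58.1 in R 4.3.3, genotype being the only term, with Benjamini-Hochberg adjustment over 13984 genes at 0.05. Of the 55 members, 22 did not pass this filter. The fit was tested on simulated data. Members, lists and the filter were chosen with earlier results of these data known. Any tested member could be named. Full statistics went to members with an unadjusted p under 0.05 and no overlap, and the 3 most abundant per role were named. Others with a fold change printed were chosen after their values were seen. Alternatives were another pseudocount, other filters, FPKM, median-ratio and quantile scaling, a variance trend, repeated rows left out, the replicate block and each library left out. Positions are those of the tables. Windows came from RefSeq by symbol. In the pathway list Aes was matched as Tle5. One further progenitor marker is not reported here.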

Additional observations from a re-analysis of the deposited data

How the results depend on the processing

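The members' count of 0 became 1, Wif1, with FPKM in place of TPM, and stayed 0 at a pseudocount of 0.1, with no filter, at 5 TPM, under median-ratio or quantile scaling, with a mean-variance trend, without repeated rows and at an adjusted p under 0.1. It was 0 to 1 with each library left out. The count of other pathway genes was 0 under each of these settings and with the replicate block. Isl1 missed the threshold under each of these settings, with differences of 0.01 (without Isl1cKO replicate 1) to 0.54 (without Isl1cKO replicate 2). The count over all genes, 69, became 44 at a pseudocount of 0.1, 15 with no filter, where more genes were tested, 127 with FPKM, 110 with a mean-variance trend and 141 at an adjusted p under 0.1. It ranged from 3 to 136 with each library left out, fits in which the lone library of a group is assumed to vary like the pair. Apart from the thresholds, the cause of these changes was not tested.

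Same-numbered replicates share only a number. Across genes, the deviations from the group means of both first replicates correlated at 0.126, with only 2 pairs. With the replicate block 265 genes passed in all (1.90%), and 1 member, Wif1 (-1.36, adjusted p = 0.0180).

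Differences near 0 changed sign. Wnt5a, at -0.00148, was 0.03 with FPKM, 0.04 under median-ratio and 0.15 under quantile scaling, and -0.15 to 0.15 with each library left out. Znrf3, at -0.01, was 0.03, 0.04 and 0.12 under the same settings, and -0.06 to 0.04. Fzd3 ranged from -0.17 to 0.17 and Tcf7l1 from -0.01 to 0.21 with each library left out. Of the 33 tested members, 9 changed sign without Isl1cKO replicate 2, 5 without control replicate 1, and 2 without either other library. The number was 1 at a pseudocount of 0.1, 3 with FPKM, 4 under median-ratio and 7 under quantile scaling, and both scalings moved the median of all genes by less than 0.1.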
